A study of Mus musculus with 4 samples.

Results

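The 37 genes encoded in the mitochondrial genome were examined in RNA-seq libraries of mouse regulatory T cells. They were chosen as every annotated gene on the mitochondrial chromosome (chrM of mm10), 37 of the 50600 genes counted, and comprise 13 protein genes, 2 ribosomal RNA genes and 22 transfer RNA genes. The rule uses the chromosome alone. Regulatory T cells are CD4 T cells that hold immune responses in check and depend on the transcription factor Foxp3. The 4 libraries form 1 group, labelled as biological replicates 1 to 4 of primary cells of strain C57BL/6NJ, so levels were compared between genes within libraries and spread was measured between libraries. The labels give no treatment, no age and no sex, link a protocol for differentiating CD4 T cells, and give one donor identifier for all 4 libraries. Names in the file headers carry the words activated, bulk and 72 h. Nothing in the labels says that the libraries came from separate animals, so a p-value measures only the spread between these libraries.

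The mitochondrial genome is a small circle that is transcribed from both strands into long precursors. Transfer RNAs lie between most of the protein and ribosomal RNA genes, and their excision releases the messengers and ribosomal RNAs, most of which then receive a short poly(A) tail. All 13 proteins are subunits of the respiratory chain or of ATP synthase, which also need many nuclear-encoded subunits. Regulatory T cells are known to rely strongly on oxidative phosphorylation.

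Total counts were 121477975, 62472060, 73690296 and 51460018 in replicates 1 to 4. For a gene with no count the limit was set at 3 counts, which were worth 0.0247 to 0.0583 CPM (counts scaled to library size), and this limit covers counting error only. Foxp3 lay at 408 to 471 TPM (a level per gene length that sums to one fixed total per library), Il2ra at 1948 to 2491 TPM and Cd4 at 634 to 671 TPM. Of 8 markers of other cell types, 1 reached 1 TPM in every library (Epcam, 2.60 to 3.87 TPM), and Lyz2 and Hbb-bs were at 0. Xist was at 173 and 199 TPM in replicates 1 and 2, against 0.592 and 0.758 TPM in replicates 3 and 4, while the Y-linked Eif2s3y was at 0.0874 and 0.133 TPM against 46.7 and 62.7 TPM, so the libraries fell into 2 pairs. The labels describe the assay as total RNA-seq but link a library protocol for poly(A)+ RNA. Whether RNA selection bears on the values below was not tested.

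Mitochondrial genes took less than 1% of all counts in each library. Replicates 1 to 4 had shares of 0.529%, 0.780%, 0.692% and 0.603%, a mean of 0.651% ± 0.109 (SD, n = 4). Replicate 2 was highest and replicate 1 lowest, and these are the 2 libraries with high Xist, so the order did not follow that split. In bulk libraries, a lower share of mitochondrial RNA per cell and a smaller fraction of cells rich in it cannot be told apart. The 6 protein genes wholly inside a stretch with near-identical copies on chromosome 1, described below, supplied only 186 counts over all libraries. Whether fragments of these genes, or of mt-Co1 and mt-Nd4, which lie partly inside, were lost was not tested. The shares therefore describe counted fragments, not the mitochondrial RNA content of the cells. The protein genes supplied 92.6% to 94.5% of mitochondrial counts, the ribosomal RNAs 5.47% to 7.31% and the transfer RNAs 0.0461% to 0.0530%.

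The messengers fell into 2 sets separated by a wide gap. The 6 genes mt-Co1, mt-Nd1, mt-Cytb, mt-Nd2, mt-Nd5 and mt-Nd4 each had more than 1000 counts in every library. The remaining 7 each had 916 counts or fewer over all 4 libraries together, and 2 of them, mt-Atp8 and mt-Nd4l, had none. In all, 16 of the 37 genes reached 1 TPM in every library (8 protein genes, both ribosomal RNAs and 6 transfer RNAs), and 10 had no count in any library (2 protein genes and 8 transfer RNAs).

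**Figure D1:**
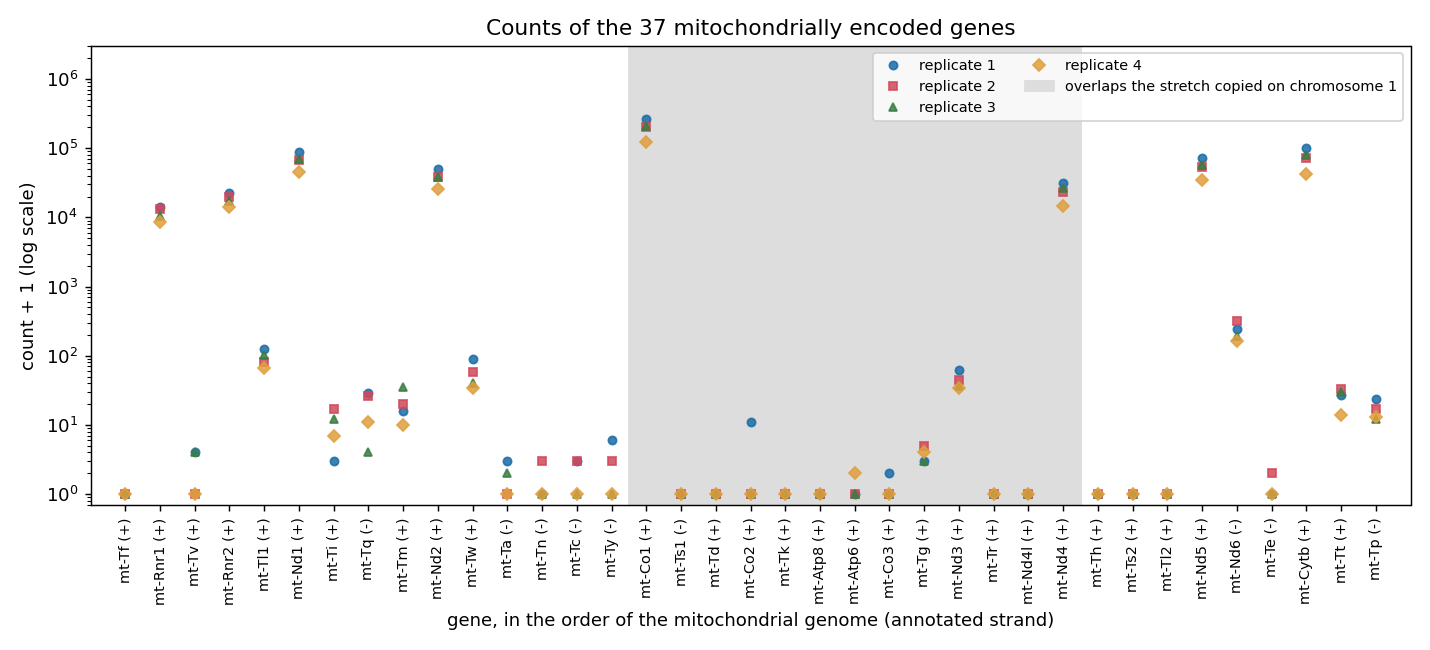
Counts of each of the 37 mitochondrial genes, plus 1, on a log scale, in genome order with the annotated strand in brackets; each marker is 1 library, and grey marks genes that overlap the stretch with a near-identical copy on chromosome 1. Within the grey stretch only mt-Co1 and mt-Nd4, at its 2 edges, have more than 1000 counts.

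mt-Co1, the catalytic subunit of cytochrome c oxidase (complex IV), was the highest mitochondrial gene (chrM:5328-6872, plus strand). It was at 4780, 7155, 6150 and 5351 TPM in replicates 1 to 4, a mean of 5859 ± 1031 TPM (SD, n = 4). By mean TPM it ranked 7 among 21764 protein-coding genes. It took 43.5%, 43.98%, 43.4% and 43.4% of the counts on mitochondrial protein genes in replicates 1 to 4.

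Messengers of 4 core subunits of complex I (NADH dehydrogenase) were also among the 6. mt-Nd1 was at 2574, 3903, 3269 and 3171 TPM, a mean of 3229 ± 544 (SD, n = 4), and ranked 13. mt-Nd2 was at 1331, 2051, 1680 and 1620 TPM, a mean of 1671 ± 296, and mt-Nd5 at 1114, 1632, 1435 and 1252 TPM, a mean of 1359 ± 225. These proteins form parts of the membrane arm of the enzyme. mt-Nd4, another membrane subunit, was at 646, 932, 873 and 697 TPM, a mean of 787 ± 137. mt-Cytb, the cytochrome b of complex III, was at 2452, 3437, 3203 and 2472 TPM, a mean of 2891 ± 505 (SD, n = 4), and ranked 15.

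The descending order of level per length was mt-Co1, mt-Nd1, mt-Cytb, mt-Nd2, mt-Nd5, mt-Nd4, mt-Rnr1, mt-Rnr2, mt-Nd6 and mt-Nd3. Each neighbour in this order was higher than the next in all 4 libraries. For 8 of the 9 neighbouring pairs the mean log2 difference exceeded its SD, and the exception was mt-Rnr1 and mt-Rnr2. The closest of the 8 was mt-Nd1 over mt-Cytb, at 0.16 ± 0.15 on the log2 scale. The place of mt-Nd4 depends on the length used, as described with the nuclear copies.

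The 2 ribosomal RNAs of the mitochondrial ribosome were at similar levels per length. mt-Rnr1, the small subunit RNA, was at 408, 762, 499 and 601 TPM, and mt-Rnr2, the large subunit RNA, at 398, 685, 498 and 588 TPM. mt-Rnr1 exceeded mt-Rnr2 by 0.06 ± 0.07 on the log2(TPM + 0.1) scale (SD, n = 4; exact two-sided sign-flip, in which 2 of 16 sign assignments were as large, the smallest share 4 libraries allow). In CPM, without division by length, the difference was -0.67, so its direction turned with the scale.

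mt-Nd6 is the only protein gene on the light strand, and counting used strand, which assigned its counts apart from those of its antisense neighbours. How completely the libraries keep strand was not tested, so some of its counts may come from the other strand. mt-Nd6 had 239, 322, 193 and 162 counts, or 12.9, 34.3, 16.9 and 20.7 TPM, a mean of 21.2 ± 9.32 (SD, n = 4). It lay below mt-Nd5, the gene next to it on the other strand, by a log2 difference of -6.08 ± 0.41, in the same direction in all 4 libraries (exact two-sided sign-flip test, 2 of 16 assignments as large; Benjamini-Hochberg adjusted p = 0.139 over 10 gene pairs). In CPM the log2 difference was -7.85. Its share of mitochondrial protein counts was 0.0394%, 0.0709%, 0.0400% and 0.0563%, highest in replicate 2 and lowest in replicate 1.

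The 6 protein genes with the fewest counts lay together. mt-Co2 and mt-Co3 encode the other core subunits of cytochrome c oxidase, mt-Atp6 and mt-Atp8 encode membrane subunits of ATP synthase, and mt-Nd3 and mt-Nd4l are small subunits of complex I. mt-Co2 had 10 counts in replicate 1 and 0 in the others. mt-Co3 had 1 count in replicate 1, and mt-Atp6 had 1 count in replicate 4. mt-Nd3 had 61, 44, 36 and 33 counts, or 4.90, 6.996, 4.69 and 6.29 TPM, and was the only one of the 6 with a count in every library. mt-Nd4l overlaps mt-Nd4 by 7 bases, and its count of 0 was at least 1040-fold to 2284-fold lower per length than mt-Nd4 in the 4 libraries, taking the limit of 3 counts per library. An identical nuclear copy covers 294 of the 297 bases of mt-Nd4l, against 876 of the 1378 bases of mt-Nd4. The bound therefore concerns counted fragments only, and whether fragments of mt-Nd4l were lost was not tested.

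These 6 genes are shown against their nuclear copies, because the reference annotation holds near-identical sequence elsewhere. A total of 7 unprocessed pseudogenes on chromosome 1, minus strand (mm10 chr1:24611535-24616197), matched mitochondrial genes at 99% identity or more, in the same order and with spacing equal to within 1 base, over chrM:6390-11042, a stretch of 4653 bases. Gm28661 matched mt-Co2 over 681 of 684 bases, Gm10925 matched mt-Atp6 over 678 bases, Gm28437 matched mt-Co3 over 783 bases and Gm10222 matched mt-Nd4l over 294 bases, each at 100% identity. Gm28439 matched the first 876 bases of mt-Nd4 at 100%. These matches were made to annotated transcripts, so the bases between the pseudogenes were not compared, and mt-Atp8, which lies inside the stretch, matched over only the 43 bases it shares with mt-Atp6. The sequence compared is that of strain C57BL/6J, and the mitochondrial sequence of these C57BL/6NJ cells was not analysed here.

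Within the aligned bases, 345 for Gm28438 and 483 for Gm29216, each copy differs from the mitochondrial gene at a single base. Gm29216 is 492 bases long, and its first bases fell outside the alignment, so differences there were not counted. Its differing base lies near this edge. The first bases of mt-Nd3 (chrM:9459-9491) and of its copy (chr1:24613087-24613119, minus strand) are shown. The start of the aligned part of mt-Co1 (chrM:6390-6423) and of its copy (chr1:24616155-24616188, minus strand) follows. The differing base is in capitals, and all are written 5′ to 3′.
mt-Nd3: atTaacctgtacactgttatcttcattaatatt
Gm28438: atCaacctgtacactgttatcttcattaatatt
mt-Co1: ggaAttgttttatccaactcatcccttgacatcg
Gm29216: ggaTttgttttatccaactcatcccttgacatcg
Counted from 1 at the 5′ end of the mitochondrial gene, the substitutions are T3C for mt-Nd3 and A1066T for mt-Co1, with the mitochondrial base first.

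The 2 protein genes without any count are given whole (chrM:7766-7969 for mt-Atp8 and chrM:9877-10173 for mt-Nd4l, both plus strand). Capitals mark the bases shared with the next gene, which are mt-Atp6 and mt-Nd4.
mt-Atp8: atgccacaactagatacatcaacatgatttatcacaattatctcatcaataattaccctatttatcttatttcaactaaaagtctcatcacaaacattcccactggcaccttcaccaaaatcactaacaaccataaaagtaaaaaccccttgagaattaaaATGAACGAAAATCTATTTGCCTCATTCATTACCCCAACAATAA
mt-Nd4l: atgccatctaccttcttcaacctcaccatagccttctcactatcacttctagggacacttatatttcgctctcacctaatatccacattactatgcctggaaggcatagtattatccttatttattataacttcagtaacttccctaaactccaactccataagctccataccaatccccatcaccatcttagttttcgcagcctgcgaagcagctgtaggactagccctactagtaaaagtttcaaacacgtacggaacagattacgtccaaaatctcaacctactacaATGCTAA

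The position of a gene relative to the copied stretch divided the protein genes by count. The 6 protein genes wholly inside it had 186 counts in total over 4 libraries, of which mt-Nd3 had 174. The 5 wholly outside it had 916 to 294731 counts each. mt-Co1 and mt-Nd4, which lie partly inside, had 797819 and 95973 counts. Of the transfer RNA genes, 5 lay inside the stretch with 11 counts in total, all on mt-Tg, and 17 lay outside with 954 counts, of which 4 were at 0.

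The copies themselves also had few counts. The 6 pseudogenes listed by symbol had 69, 20, 27 and 18 counts in replicates 1 to 4, 134 in total. Gm29216 had 23, 7, 4 and 3 counts, Gm10925 had 14, 1, 9 and 5, Gm28661 had 9, 10, 6 and 3, Gm28437 had 13, 1, 7 and 5, Gm28439 had 9, 1, 1 and 1, and Gm28438 had 1, 0, 0 and 1. Gm10222, found by its sequence, had 1 count in replicate 4. None of these 7 copies had more than 37 counts in total. The search also found less identical pseudogenes, matched at 90% or more over at least 100 bases, which are named after their values were seen. Gm13340, which matched mt-Co1 at 97.6%, had 85, 20, 45 and 23 counts, and Gm13341, which matched mt-Co2 at 95.9%, had 34, 17, 22 and 14. The others were lower, with totals of 23 for Gm11512, 14 for Gm4076, 6 each for Gm11410 and Gm11407, 5 for Gm13339, 1 for Gm43743 and 0 for Gm11408. The deposited counts show no option for counting fragments that map to several places, and whether such fragments account for the low counts was not tested.

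**Figure D2:**
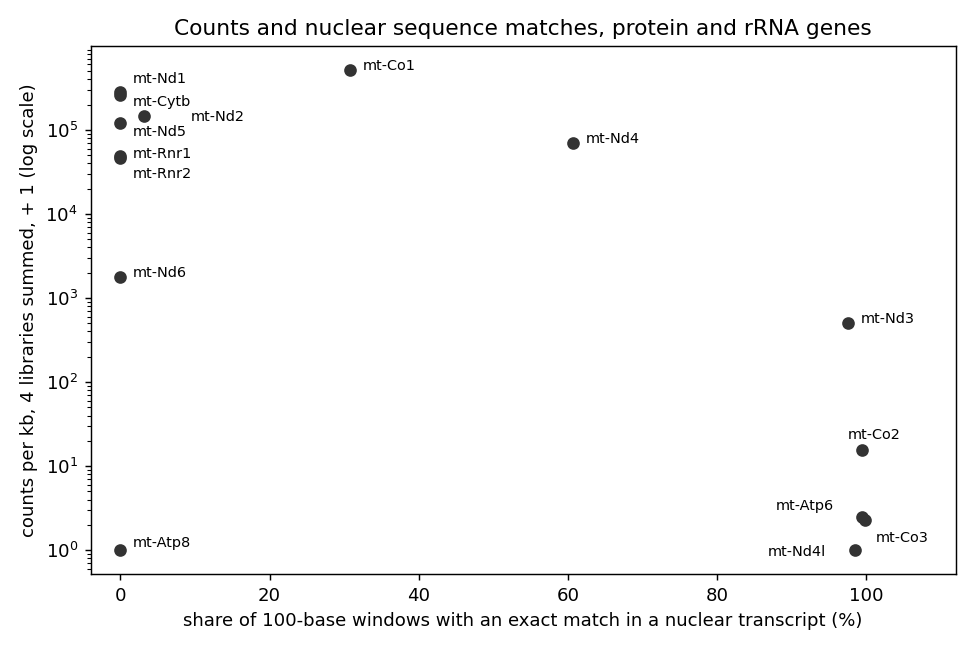
Counts per kb of each mitochondrial protein and ribosomal RNA gene, summed over 4 libraries, plus 1, on a log scale, against the share of its 100-base windows found without mismatch in an annotated nuclear transcript. The 5 genes with more than 97% of windows matched had at most 500 counts per kb, while mt-Atp8 is at 0 on both measures, and no annotated transcript was found to cover the copied stretch there.

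For the 2 genes only partly copied, the length used sets the level. As an alternative chosen after the data were seen, counts were divided by the bases outside the 99% matches, which are 502 bases of mt-Nd4 and 1062 bases of mt-Co1. mt-Nd4 was then at 1772, 2557, 2396 and 1912 TPM, a mean of 2159 ± 377 (SD, n = 4), above the means of mt-Nd2 and mt-Nd5. mt-Co1 was then at 8524 ± 1500 TPM and remained the highest.

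Transfer RNA genes had 965 counts over the 4 libraries together. mt-Tl1, a leucine transfer RNA, had 124, 81, 102 and 66 counts. mt-Tw, for tryptophan, had 88, 58, 39 and 33, and mt-Tt, for threonine, had 26, 32, 29 and 13. mt-Tm, for methionine, had 15, 19, 34 and 9, and mt-Tq, for glutamine, had 28, 25, 3 and 10. The 5 genes therefore held most of the transfer RNA counts, and the lowest with any count were mt-Te with 1, mt-Tn with 2 and mt-Ta with 3 in total. mt-Tf, mt-Ts1, mt-Td, mt-Tk, mt-Tr, mt-Th, mt-Ts2 and mt-Tl2 were at 0. Plus-strand transfer RNAs had 260, 210, 220 and 130 counts, and minus-strand ones 60, 48, 15 and 22.

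The highest pair and 1 of the genes at 0 are shown to set a transfer RNA beside its neighbours. mt-Tl1 (chrM:2676-2750) directly adjoins mt-Rnr2 and mt-Nd1 with 0 bases between, mt-Tw (chrM:4950-5016) overlaps the end of mt-Nd2, and mt-Tk (chrM:7700-7764) lies inside the copied stretch. TPM of genes this short is unreliable.
mt-Tl1: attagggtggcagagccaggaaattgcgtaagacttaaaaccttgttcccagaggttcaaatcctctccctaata
mt-Tw: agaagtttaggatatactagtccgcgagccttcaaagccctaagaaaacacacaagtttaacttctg
mt-Tk: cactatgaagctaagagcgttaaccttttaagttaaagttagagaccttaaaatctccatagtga

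In complexes I, III and IV, the abundant mitochondrial subunits stood above every nuclear one. All 36 nuclear subunits of complex I had a lower mean TPM than mt-Nd1, mt-Nd2, mt-Nd4 and mt-Nd5, and mt-Nd6 was above 2 of them and mt-Nd3 above 0. TPM divides by the summed exons of a gene, and the place of mt-Nd6 depends on that length. Of the 2 genes below it, Ndufab1 had 4176, 2396, 2712 and 1914 counts and Ndufb4 had 384, 229, 244 and 161. mt-Nd6 had 239, 322, 193 and 162. The median over the 7 mitochondrial subunits was 646, 932, 873 and 697 TPM, against 134, 119, 130 and 129 TPM over the nuclear ones. That is a log2 ratio of 2.60 ± 0.32 (SD, n = 4), or 6.07-fold, with mt-Nd4 as the median mitochondrial gene. With mt-Nd4 divided by the bases outside its copy, mt-Nd5 became the median gene and the log2 ratio was 3.39 ± 0.31, or 10.5-fold. Both medians still include mt-Nd3 and mt-Nd4l at their counted levels, means of 5.72 and 0 TPM. These genes have near-identical nuclear copies over nearly all their bases. In CPM, which does not divide by length, and with mt-Nd4 unchanged, the log2 ratio of medians was 2.57. The nuclear subunits ran from Ndufa2, a matrix arm subunit, at 340 ± 33.8 TPM to Ndufb4, a membrane arm subunit, at 9.65 ± 0.80 TPM.

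In complex III, mt-Cytb lay above all 9 nuclear subunits, with a log2 ratio to their median of 3.18 ± 0.25, or 9.09-fold. The nuclear subunits ran from Uqcr10 at 611 ± 12.1 TPM to Uqcrq at 133 ± 13.5 TPM. In complex IV, mt-Co1 lay above all 10 nuclear subunits, which ran from Cox8a at 1297 ± 46.4 TPM to Cox6c at 106 ± 6.14 TPM, while mt-Co2 and mt-Co3 lay below all of them. In complex V (ATP synthase), mt-Atp6 and mt-Atp8 lay below all 15 nuclear subunits, which ran from the catalytic beta subunit Atp5b at 1499 ± 54.4 TPM to Atp5l at 5.09 ± 0.67 TPM. No ratio of medians was computed for complexes IV and V, whose mitochondrial medians rest on genes with at most 10 counts in a library. mt-Co2, mt-Co3 and mt-Atp6 have identical nuclear copies over nearly all their bases, and mt-Atp8 lies inside the copied stretch. Their places below the nuclear subunits are thus places by counted fragments, and whether fragments were lost was not tested. The nuclear subunits were not checked for near-identical copies of their own.

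**Figure D3:**
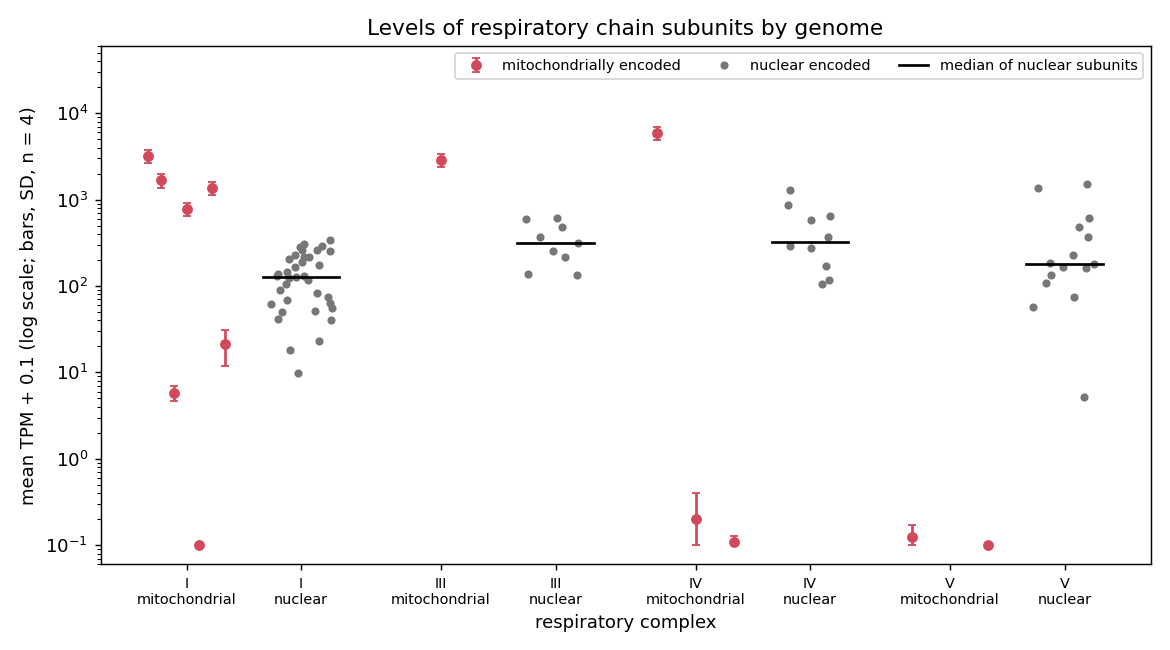
Mean TPM plus 0.1 on a log scale of the mitochondrially encoded (red, with SD over 4 libraries) and nuclear-encoded (grey) subunits of complexes I, III, IV and V; black lines are medians of the nuclear subunits. mt-Co1, at 5859 TPM, is the highest point. At the bottom are mt-Co2, mt-Co3, mt-Atp6, mt-Atp8 and mt-Nd4l, which all lie inside the stretch with near-identical nuclear copies.

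Single pairs of a mitochondrial and a nuclear subunit had the same order in all 4 libraries. mt-Nd1 exceeded Ndufs1, a nuclear core subunit of complex I (49.6, 54.6, 50.2 and 52.1 TPM), by 5.95 ± 0.20 on the log2(TPM + 0.1) scale, and by 2.87 in CPM, which is not divided by length. mt-Cytb exceeded Cyc1, the cytochrome c1 of complex III (621, 551, 590 and 625 TPM), by 2.26 ± 0.33. mt-Co1 exceeded Cox4i1, a regulatory subunit of complex IV (626, 531, 585 and 606 TPM), by 3.30 ± 0.35. For each, 2 of 16 sign assignments gave as large a difference (exact, two-sided), with a Benjamini-Hochberg adjusted p of 0.139 over 10 pairs, so none could pass a threshold of 0.05 with 4 libraries. The 5 other pairs contain a gene with at most 10 counts in total, and their log2 differences are not given.

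The nuclear genes that express the mitochondrial genome were all detected. All 57 listed genes reached 1 TPM in every library. Of 12 genes for transcription and genome upkeep (median of mean TPM 19.7), Polg, the catalytic subunit of the mitochondrial DNA polymerase, was highest at 68.1 ± 2.87 TPM, and its accessory subunit Polg2 lowest at 7.52 ± 0.39 TPM. Of 10 RNA processing genes, Hsd17b10, a subunit of mitochondrial RNase P, was highest at 131 ± 9.48 TPM and Fastkd1 lowest at 8.48 ± 0.68 TPM. Of 8 genes for RNA stability and decay, the oligoribonuclease gene Rexo2 was highest at 175 ± 11.6 TPM. Slirp, whose product binds mitochondrial messengers with Lrpprc, was lowest at 20.9 ± 1.04 TPM. Of 15 RNA modification genes, the pseudouridine synthase gene Pus1 was highest at 146 ± 10.3 TPM and the transfer RNA methyltransferase gene Trmt61b lowest at 6.72 ± 0.25 TPM. Of 12 translation factors, the elongation factor gene Tufm was highest at 164 ± 8.88 TPM and Mtrf1, of the release factor family, lowest at 9.36 ± 0.85 TPM.

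The abundant messengers moved together between libraries. All 6 with more than 1000 counts were highest in replicate 2 and lowest in replicate 1. The coefficient of variation of their TPM was 16.6% to 17.7%, against a median of 8.53% over the 11984 genes at 1 TPM or more in every library. As shares of mitochondrial protein counts, their coefficients of variation were 0.537% to 5.54%. These shares sum to a whole, so a change of all mitochondrial messengers together leaves them as they are.

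**Figure D4:**
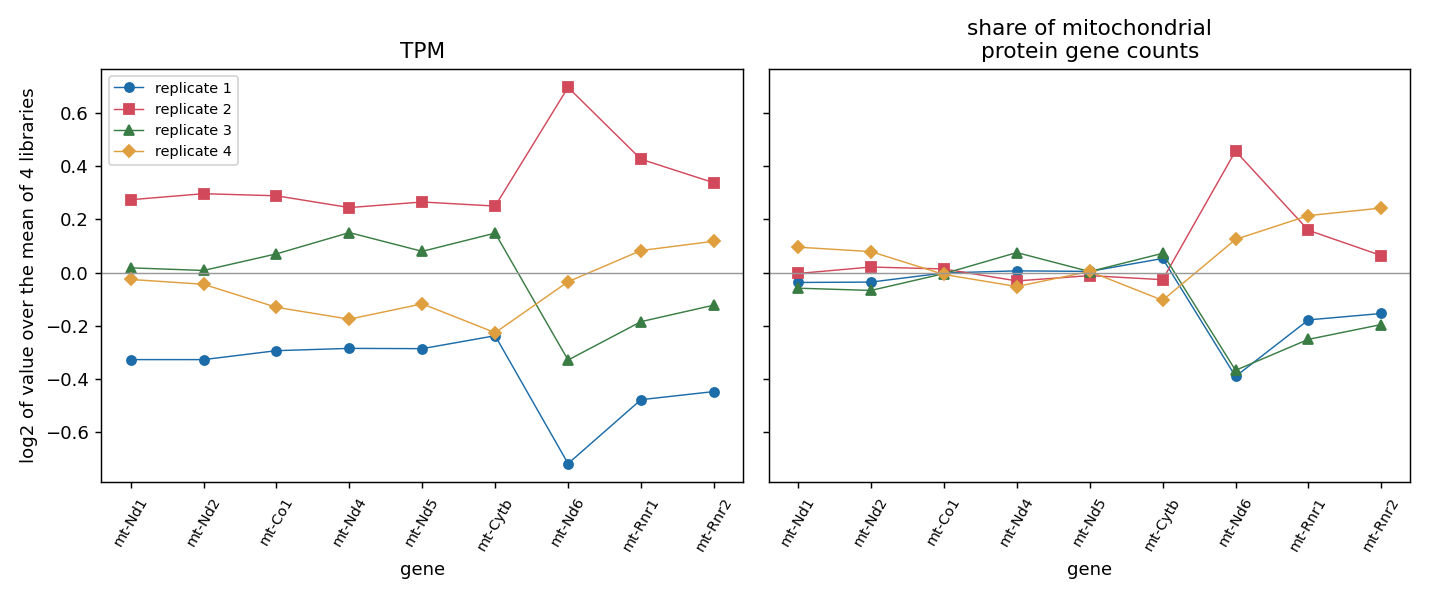
Log2 of each library's value over the mean of 4 libraries for 7 protein genes and both ribosomal RNAs, as TPM (left) and as a percentage of mitochondrial protein gene counts (right); each line joins the values of 1 library and has no meaning between genes. On the left replicate 2 is highest and replicate 1 lowest for all 9 genes, and on the right the first 6 genes lie close to 0.

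No mitochondrial gene was called variable between libraries. Since the test called almost no gene at all, the absence of a call is not evidence of stable levels. In edgeR's quasi-likelihood fit, the dispersion of each gene was compared with its trended prior, and 0 of the 14 mitochondrial genes tested had a Benjamini-Hochberg adjusted p under 0.05, against 1 of 13625 genes (0.00734%). At an unadjusted p under 0.05, 9 of the 14 passed, against 4.70% of all genes (641). The 9 were both ribosomal RNAs, the 6 abundant messengers and mt-Nd6, and since they share libraries they are not independent. mt-Rnr1 had the largest log2 ratio of dispersion to prior, at 4.11 (edgeR, adjusted p = 0.848), followed by mt-Rnr2 at 3.62 (edgeR, adjusted p = 0.965). The median log2 ratio was 2.79 over the 14 genes and -0.19 over all genes. limma-trend called 0 of the 14, and DESeq2 marked 0 of the 14 and 43 genes in all as dispersion outliers. Without a filter on low counts, edgeR called mt-Rnr1 and mt-Rnr2 among 98 genes. Without replicate 1, 4 of the 14 had an unadjusted p under 0.05 in edgeR.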

How the data were processed

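RNA-seq was measured in 4 libraries of 1 group. The deposited files hold raw counts of fragments, which, per the file headers, the authors obtained with featureCounts 1.4.6-p4 from mm10 and GENCODE M13, summing exons of a gene, with both ends required and the reverse strand setting (2). The headers show no option for fragments mapped to several places or for overlapping genes. Names in the headers hold the word star2; no aligner version is given in the sources used here. TPM was computed from counts and the deposited lengths, since the files hold no TPM. Of 50600 genes, 50376 matched a symbol. Gene types, transcripts and sequences came from GENCODE M21 (GRCm38), and all 37 mitochondrial coordinates were equal in it. Mitochondrial genes were compared with 141730 nuclear transcripts by blastn 2.17.0 and exact windows of 50, 100 and 200 bases.

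For variation, the test was that of edgeR 4.0.16 under R 4.3.3 (TMM, filterByExpr, intercept only, robust prior), and the code was tested on simulated data. Alternatives used limma 3.58.1, DESeq2 1.42.0, other scalings, filters and pseudocounts, and leaving out each replicate. Gene pairs used log2(TPM + 0.1). Replicate libraries differed by more than sampling noise (chi-square per degree of freedom 16.9 or more). Named genes are all protein and ribosomal RNA genes, the 5 highest and 3 lowest transfer RNAs and those at 0, all genes of pairs with counts, the highest and lowest nuclear gene of each list, and nuclear copies listed by symbol with a count. The members, gene lists and tests were chosen with earlier results of these data known. Other steps ran in Python 3.11.15 with pandas 2.3.3, numpy 2.4.6 and matplotlib 3.10.9.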

Additional observations from a re-analysis of the deposited data

Results flagged for a closer look

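The share of mitochondrial protein counts on mt-Nd5 was 11.8% in replicate 2, against 12.0% in each of the 3 other libraries, and the gap to the nearest library exceeded the critical value of Dixon's test for 4 samples. The whole range was less than 1 percentage point. This was 1 of 39 quantities examined, and chance alone flags about 5% of groups.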

How the results depend on the processing

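Of 173 alternative values over 27 results, 153 were labelled as kept, 19 as moved and 1 as changed in sign. Kept meant the same direction for gene pairs and a move of less than the spread between replicates for mean values. For counts of genes or fragments it meant an equal value or a change within a fixed fold limit. Leaving out a replicate could not move a mean by as much as its SD. It could also not turn a pair with the same direction in every library, as all pairs compared had. The labels of those values were thus fixed in advance and are no sign of stability. In CPM, the summed level of the 37 genes was 6512 against 17088 TPM, 10 genes rather than 16 reached 1 in every library, the log2 ratio of mt-Cytb to the nuclear median of complex III was 2.83 rather than 3.18, mt-Nd1 over Ndufs1 2.87 rather than 5.95, mt-Nd6 against mt-Nd5 -7.85 rather than -6.08, and the log2 difference of mt-Rnr1 and mt-Rnr2 turned to -0.67. CPM does not divide by length. With mt-Nd4 divided by the bases outside its nuclear copy, chosen after seeing the data, the complex I log2 ratio was 3.39 rather than 2.60. Leaving out genes shorter than 200 bases, which removes the transfer RNAs, also gave 10 genes at 1 TPM. Without a filter on low counts, 2 mitochondrial genes were called variable rather than 0, among 98 genes rather than 1; the cause was not tested. Counts on nuclear copies were 134 by symbol, 135 at 99% identity and 450 at 90% identity over 100 bases or more, the last 2 chosen after seeing the data. Leaving out each replicate gave a mitochondrial share of 0.608% to 0.692%, 16 to 18 genes at 1 TPM, and 0 mitochondrial genes called, while the count of all genes called was 1 to 18. Without replicate 2 it was 18, and without replicate 1 it was 2. No paired analysis was possible because the study has 1 group. The search of nuclear copies against a whole genome was not run, since only transcripts of the build were used here. The limit of 3 counts per library for genes at 0 covers counting error only, not fragments lost in mapping or counting, whose part was not tested.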
